A study of Homo sapiens with 6 samples.

Results

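The Sprouty, SPRED and DUSP genes encode proteins that hold the ERK pathway in check. The genes described here are SPRY1, SPRY2 and SPRY4 of the Sprouty family, SPRED1 and SPRED2, the MAP kinase phosphatases DUSP4, DUSP5, DUSP6 and DUSP7, and PHLDA1, which is switched on by the same pathway. They were found as the rows of the count tables whose gene name equals one of these 10 symbols. All 10 were present among the 32029 genes listed, and all 10 were among the 14996 genes with enough reads to be tested. Their level was compared between SW480 cells with and without knockdown of the transcription factor ZEB1.

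In the ERK pathway, a growth factor receptor loads RAS with GTP through the adaptor GRB2 and the exchange factor SOS, and RAS then starts the kinase relay from RAF through MEK to ERK. Active ERK enters the nucleus and switches on its own inhibitors. Sprouty proteins act between the receptor and RAF, SPRED proteins bring the RAS-inactivating protein neurofibromin to the membrane, and the DUSP proteins remove the activating phosphates from ERK itself. In cancer cells, transcripts of these inhibitors are often read as a measure of ERK output.

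SW480 is an established human colorectal adenocarcinoma cell line. 3 cultures were transfected with a control siRNA (siControl, labelled siNC) and 3 with an siRNA against ZEB1 (siZEB1), a repressor of epithelial genes, and total RNA was taken 48 h later according to the series record. The labels describe the cells as wild type or as ZEB1 knockdown, and all 6 cultures are of this 1 line. Since the labels name 1 siRNA treatment against ZEB1, an effect of the loss of ZEB1 and an effect of the siRNA on other transcripts cannot be told apart.

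Between 19040636 and 22357633 reads were counted on genes per culture. ZEB1 lay between 47.1 and 58.6 CPM (reads scaled to a common library size) in the siControl cultures and between 6.86 and 8.46 CPM in the siZEB1 cultures (log2 fold change -2.85, SE 0.11, adjusted p = 4.85e-12 by edgeR's quasi-likelihood test). Of 11 epithelial markers fixed for the check of the cell type, 6 were above 1 CPM on average. The 10 among the rows used here summed to 4815 to 5438 CPM with siControl and 5330 to 6003 CPM with siZEB1. KRT20, GPA33, CDH17 and LGALS4 were below 1 CPM, and CDX1 was not among the rows used here. Of the 7 epithelial markers tested, KRT19, EPCAM and VIL1 were higher and CDX2 was lower with siZEB1, and the part of this shift in the results on the feedback genes was not tested. Of 9 markers of fibroblasts, vessels and blood cells, 3 were above 1 CPM on average. The 7 among the rows used here summed to 15.4 to 17.4 CPM with siControl and 14.9 to 17.1 CPM with siZEB1. COL1A2, COL3A1, VWF and CD3E were below 1 CPM, and DCN and PTPRC were not among the rows used here. Of the 4 markers of this list that were tested, PDGFRB was higher with siZEB1, at 3.98 ± 0.309 and 5.33 ± 0.222 CPM (SD, n = 3 each, log2 fold change 0.42, adjusted p = 0.0281 by edgeR's quasi-likelihood test), and the other 3 did not pass. Its part in the results on the feedback genes was not tested.

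The inhibitors of ERK were lower in the siZEB1 cultures, with 1 exception, and PHLDA1 was higher. Of the 10 genes, 8 were lower and 1 was higher at an adjusted p under 0.05 in edgeR's quasi-likelihood test, fitted over all genes tested. Among all 14996 genes, 21.2% were lower, 19% were higher and 40.2% changed in either direction by the same criterion. The median log2 fold change of the 10 genes was -0.44, against -0.0055 over all genes tested. The 10 genes were chosen with earlier results of these data known, so their contrast with all genes is a description. The shares over all genes include genes with few reads, and shares among genes of similar abundance were not computed. SPRY1, SPRY2, SPRY4, SPRED2, DUSP4, DUSP5, DUSP6 and DUSP7 were the lower genes, and in each of them every siZEB1 culture lay below every siControl culture, an order that held for 25.3% of all genes tested. Counting either direction, the groups did not overlap in 9 of the 10 genes and in 49.5% of all genes. SPRED1 was the gene that did not pass. In bulk cultures, fewer cells that express a gene and less RNA per cell cannot be told apart.

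**Figure D1:**
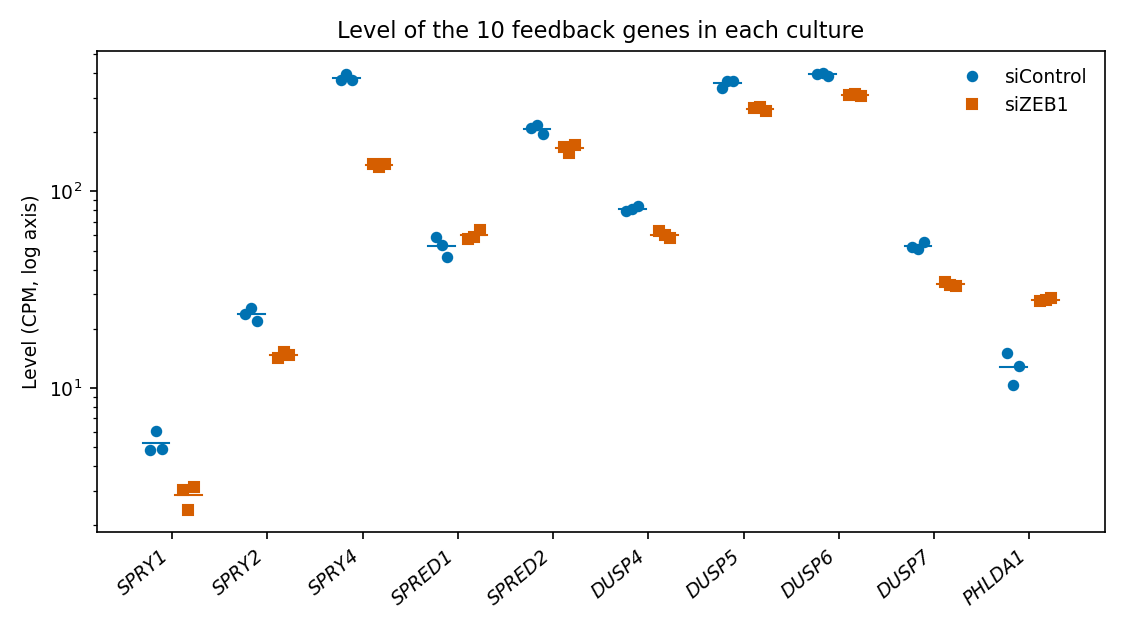
Level of each of the 10 genes in each culture, in CPM on a log axis, with circles for the 3 siControl cultures, squares for the 3 siZEB1 cultures and a bar at the mean of each group. The groups stand apart in every gene but SPRED1, and PHLDA1 is the 1 gene in which the siZEB1 cultures lie on top.

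Sprouty proteins are scaffolds that intercept the signal between receptor adaptors and RAF, and SPRY2 also binds the ubiquitin ligase CBL. SPRY1, SPRY2 and SPRY4 fell, and SPRY3, the remaining Sprouty gene tested, did not pass. SPRY4 (ENSG00000187678, chromosome 5 from 142310427 to 142326455, minus strand, GRCh38) was at 370.5, 393.8 and 369.3 CPM in the siControl cultures and at 137.1, 132.4 and 137.0 CPM in the siZEB1 cultures. The 2 groups were far apart and each was tight. Its log2 fold change was -1.48 (SE 0.057, 95% confidence interval -1.60 to -1.36, adjusted p = 4.85e-12 by edgeR's quasi-likelihood test), a change of -64.1% in level. Counted from the lowest log2 fold change, it ranked 127 of the 14996 genes, and it fell the most of the 10. These values rest on 7120 to 8819 reads per siControl culture and 2546 to 2622 reads per siZEB1 culture. Leaving out 1 culture at a time moved the log2 fold change only between -1.50 and -1.45.

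SPRY2 (ENSG00000136158, chromosome 13 from 80335976 to 80340951, minus strand) was at 23.7, 25.4 and 22.0 CPM with siControl and at 14.1, 15.3 and 14.8 CPM with siZEB1. Its highest siZEB1 culture lay below its lowest siControl culture. The log2 fold change was -0.69 (SE 0.090, adjusted p = 1.11e-05 by edgeR's quasi-likelihood test). SPRY1 (ENSG00000164056, chromosome 4 from 123396795 to 123403760, plus strand) was the least abundant of the Sprouty genes, with read numbers of 103, 136 and 94 under siControl and of 57, 46 and 60 under siZEB1. This amounted to 5.26 ± 0.701 CPM and 2.85 ± 0.400 CPM (SD, n = 3 each), and the log2 fold change was -0.89 (SE 0.17, adjusted p = 0.000468 by the same test). With counts this low its fold change was the least precise of the 10, with a 95% confidence interval from -1.25 to -0.53, but it stayed between -0.96 and -0.77 with each culture left out. SPRY3 had only 14 to 30 reads per culture, at 1.42 ± 0.119 and 1.10 ± 0.324 CPM, and did not pass (log2 fold change -0.36, adjusted p = 0.339 by the same test).

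The make-up of the Sprouty transcripts differed between the groups. Per kilobase of exonic length, SPRY4 held 86.2%, 85.8% and 86.9% of the summed level of SPRY1, SPRY2 and SPRY4 in the siControl cultures, and 79.4%, 78.2% and 78.7% in the siZEB1 cultures. The share of SPRY2 went from 11.7% ± 0.444 to 18.5% ± 0.913 (SD, n = 3 each) while its level fell. SPRY1 held 1.99% ± 0.179 and 2.74% ± 0.349. SPRY4 thus remained the main Sprouty transcript in both groups.

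Ratios of 2 paralogs within a culture do not depend on how the libraries are scaled. The log2 ratio of SPRY4 reads to SPRY2 reads was 4.0 ± 0.064 with siControl and 3.20 ± 0.082 with siZEB1 (SD, n = 3 each), a difference of -0.79. The ratio of SPRY4 to SPRY1 differed by -0.59 and that of SPRED2 to SPRED1 by -0.50, both without overlap of the groups. DUSP7 lost ground against DUSP6 as well, with a log2 ratio of -2.90 ± 0.097 and -3.19 ± 0.031. In contrast, the ratio of DUSP4 to DUSP5 was -2.12 in both groups, a difference of -0.00071, and that of SPRY2 to SPRY1 differed by 0.20 with overlapping cultures. The 6 pairs were chosen after the values had been seen. In the exact permutation test, two-sided, the 4 ratios whose groups did not overlap reached p = 0.1, the smallest p that 3 cultures against 3 allow, and adjusted p = 0.15 over the 6 pairs. SPRY2 over SPRY1 gave p = 0.4 (adjusted p = 0.48) and DUSP4 over DUSP5 gave p = 1 in the exact permutation test.

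**Figure D2:**
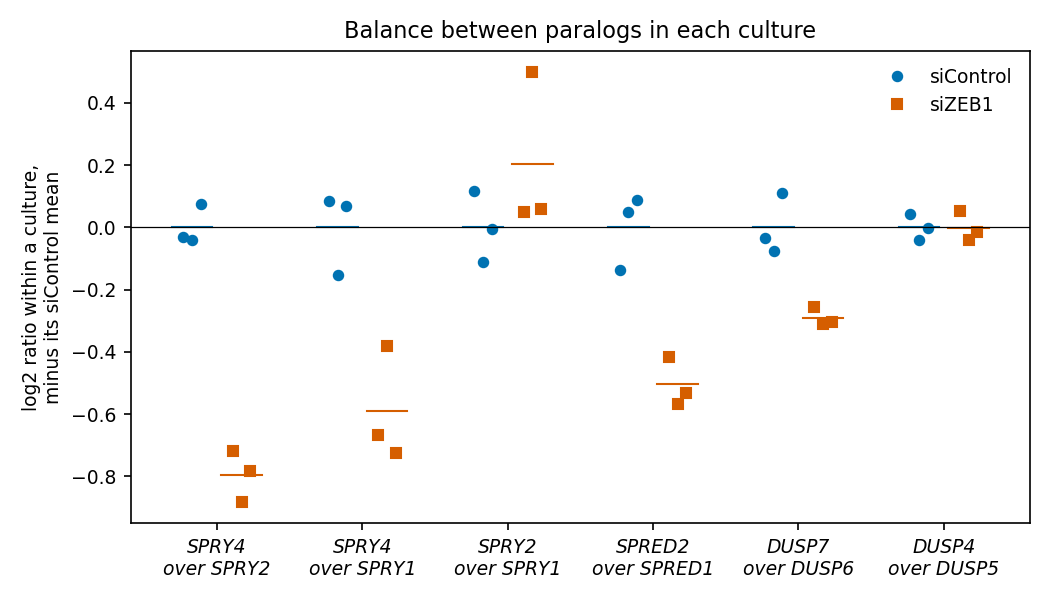
Log2 ratio of the reads of 2 related genes within each culture, minus the siControl mean of that ratio, with circles for siControl, squares for siZEB1 and a bar at each group mean. The siZEB1 cultures lie below all siControl cultures for SPRY4 over SPRY2, SPRY4 over SPRY1, SPRED2 over SPRED1 and DUSP7 over DUSP6, and among them for DUSP4 over DUSP5.

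SPRED1 and SPRED2 share a C-terminal domain with the Sprouty proteins and work with neurofibromin to switch RAS off. SPRED2 passed the test and SPRED1 did not, and the difference between their changes is the -0.50 of their ratio given above. SPRED2 (ENSG00000198369, chromosome 2 from 65310851 to 65432637, minus strand) was at 210.0, 218.2 and 195.3 CPM with siControl and at 168.4, 156.5 and 173.1 CPM with siZEB1. It fell by 0.32 on the log2 scale (SE 0.063, adjusted p = 0.000554 by edgeR's quasi-likelihood test), the smallest change among the genes that passed. SPRED1 (ENSG00000166068, chromosome 15 from 38252326 to 38357249, plus strand) was at 58.6, 53.5 and 46.6 CPM with siControl and at 57.0, 58.9 and 63.5 CPM with siZEB1. Its groups overlapped, and its siControl cultures were the more scattered. The log2 fold change of SPRED1 was 0.17 (SE 0.083, 95% confidence interval -3.07e-05 to 0.35, adjusted p = 0.104 by edgeR's quasi-likelihood test). Single cultures decided this value. Without siControl replicate 1 it was 0.25 and passed (adjusted p = 0.0260 by the same test), without siControl replicate 3 it was 0.090 (adjusted p = 0.368), and over all alternatives the adjusted p ran from 0.0260 to 0.368.

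The DUSP proteins divide by place and by substrate. DUSP4 and DUSP5 sit in the nucleus, where DUSP5 is selective for ERK and DUSP4 also acts on other MAP kinases, whereas DUSP6 and DUSP7 are cytoplasmic and prefer ERK. All 4 were lower with siZEB1. DUSP5 (ENSG00000138166, chromosome 10 from 110497838 to 110511544, plus strand) was at 337.3, 365.1 and 365.8 CPM with siControl and at 264.6, 267.6 and 254.9 CPM with siZEB1, and fell by 0.44 on the log2 scale (SE 0.056, adjusted p = 8.29e-06 by edgeR's quasi-likelihood test). DUSP4 (ENSG00000120875, on chromosome 8) was at 79.9, 81.5 and 83.9 CPM and at 63.1, 59.8 and 58.0 CPM, and also fell by 0.44 (SE 0.066, adjusted p = 4.72e-05 by the same test). The 2 nuclear phosphatases differed by more than 4-fold in CPM and fell by nearly the same proportion, -26.3% each.

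DUSP6 (ENSG00000139318, chromosome 12 from 89347232 to 89353271, minus strand), a widely used readout of ERK activity, was at 397.4, 401.7 and 384.5 CPM with siControl and at 308.1, 311.2 and 306.4 CPM with siZEB1. It was the most abundant of the 10 in CPM. Its change was modest and closely repeated between cultures, and the log2 fold change was -0.35 (SE 0.052, adjusted p = 3.73e-05 by edgeR's quasi-likelihood test). An antisense gene (ENSG00000274021) overlaps 40.5% of the exonic bases of DUSP6, and its own row held 82 reads in all 6 cultures together. DUSP7 (ENSG00000164086, chromosome 3 from 52048919 to 52056550, minus strand) fell the most of the phosphatases, from 51.9, 50.9 and 55.4 CPM to 34.5, 33.5 and 33.1 CPM. The log2 fold change of DUSP7 was -0.64 (SE 0.071, adjusted p = 1.79e-06 by the same test). Its share of the summed level of the 4 DUSP genes per kilobase was 3.86% ± 0.187 with siControl and 3.29% ± 0.0593 with siZEB1 (SD, n = 3 each).

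PHLDA1 (ENSG00000139289, chromosome 12 from 76025447 to 76033932, minus strand) encodes a protein with a pleckstrin homology-like domain, is induced through ERK in many cells and is a proposed marker of epithelial stem cells in the intestine. Its level went opposite to that of the inhibitors. It was at 15.1, 10.4 and 12.9 CPM with siControl and at 27.8, 27.9 and 28.5 CPM with siZEB1. The siZEB1 cultures were nearly equal, whereas the siControl cultures spread over 10.4 to 15.1 CPM. PHLDA1 rose by 1.14 on the log2 scale (SE 0.11, 95% confidence interval 0.90 to 1.37, adjusted p = 3.84e-07 by edgeR's quasi-likelihood test), ranking 289 of 14996 from the highest, and the value stayed between 1.0 and 1.28 with each culture left out. Across all genes tested, the siZEB1 cultures lay wholly above the siControl cultures in 24.3%. Its paralogs PHLDA2 and PHLDA3 did not pass, with log2 fold changes of -0.14 (adjusted p = 0.211) and 0.00067 (adjusted p = 0.997) in the same edgeR test. A pair of antisense genes overlaps 6.85% and 9.65% of the exonic bases of PHLDA1. Neither had a row of its own in the counts, so any reads from them could not be set apart from those of PHLDA1.

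**Figure D3:**
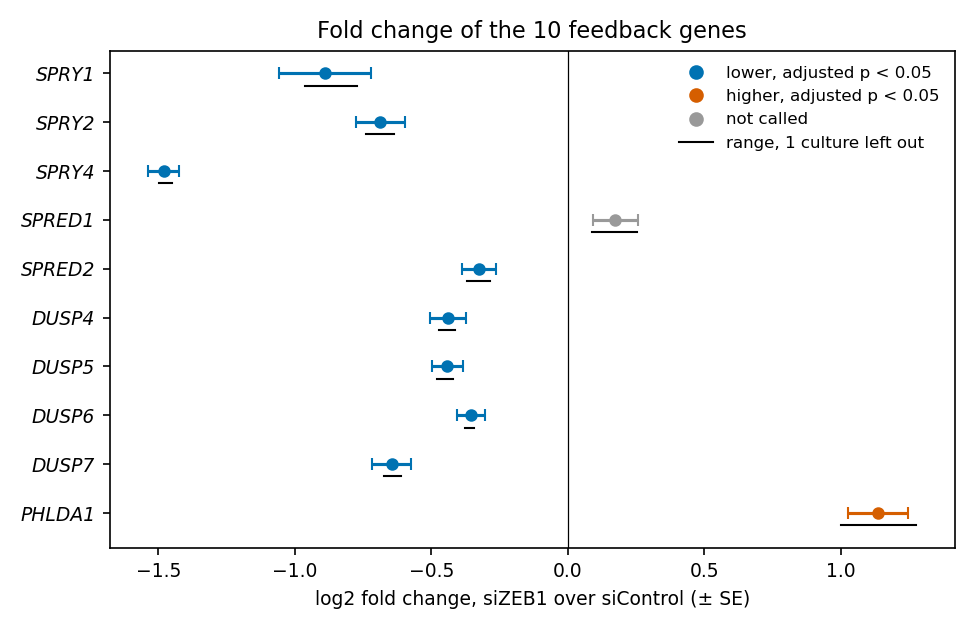
Log2 fold change of siZEB1 over siControl for each of the 10 genes (points) with its standard error (bars) from edgeR, and below each point a black line for the range when 1 culture was left out. SPRY4, at -1.48, and PHLDA1, at 1.14, lie farthest from 0, and the range of SPRED1, from 0.090 to 0.25, lies close to it.

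At a fold change above 1.5 with an unadjusted p under 0.001 in edgeR's quasi-likelihood test, SPRY1, SPRY2, SPRY4 and DUSP7 remained among the lower genes and PHLDA1 was higher. By that criterion 6.7% of all genes tested were lower and 4.52% were higher. The changes of DUSP4, DUSP5, DUSP6 and SPRED2 were smaller than that fold. The 9 genes that passed at an adjusted p under 0.05 kept their direction and their call in each of the 12 other settings tried.

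**Figure D4:**
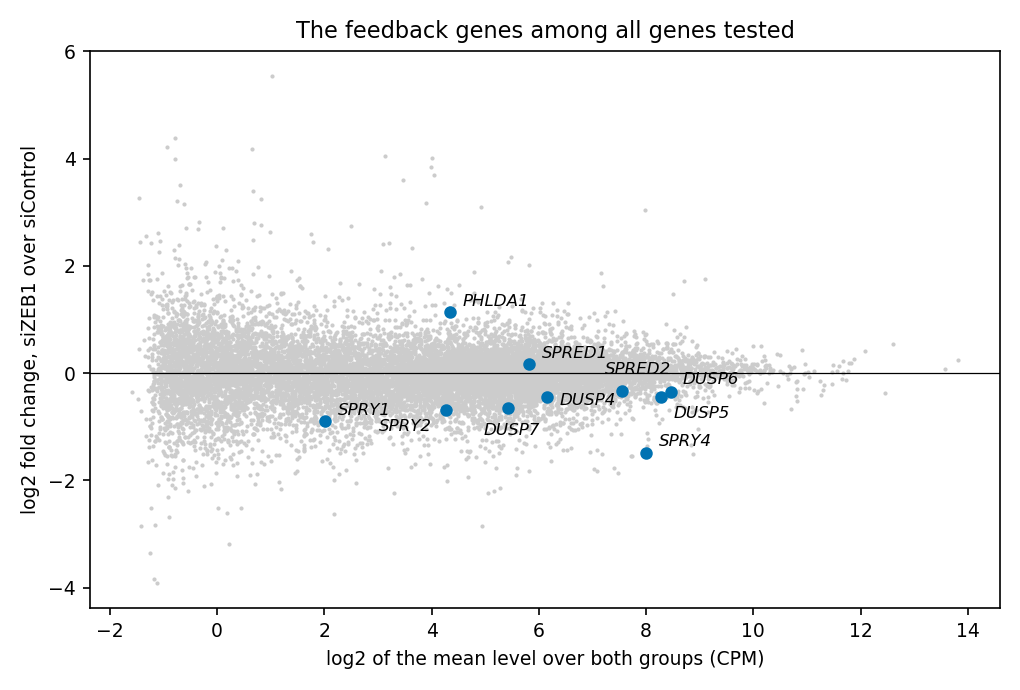
Log2 fold change of siZEB1 over siControl against the log2 of the mean level in CPM for all 14996 genes tested (grey), with the 10 genes in blue and named. SPRY4 lies at the lower edge of the cloud for genes of its abundance and PHLDA1 near the upper edge, while SPRED2, DUSP4, DUSP5 and DUSP6 lie within it.

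Levels of different genes can be set side by side per kilobase of exonic sequence. In siControl cultures the order on this scale was DUSP5 (136 ± 6.22 CPM per kilobase), DUSP6 (85.2 ± 1.93), SPRY4 (57.6 ± 2.10), SPRED2 (40.3 ± 2.25), DUSP4 (11.3 ± 0.280), DUSP7 (9.33 ± 0.422), SPRY2 (7.81 ± 0.562), SPRED1 (6.41 ± 0.727), PHLDA1 (1.58 ± 0.294) and SPRY1 (1.33 ± 0.177), each as mean ± SD with n = 3. PHLDA1 and SPRY1 were the only neighbours in this order whose cultures overlapped. In siZEB1 cultures SPRY4 dropped to 20.6 ± 0.408 CPM per kilobase and stood below SPRED2 at 32.2 ± 1.66. SPRED1, at 7.24 ± 0.404, stood above DUSP7 at 5.97 ± 0.124 and SPRY2 at 4.85 ± 0.189. PHLDA1 reached 3.48 ± 0.0502 CPM per kilobase against 0.719 ± 0.101 for SPRY1, and no neighbours overlapped in the siZEB1 order. DUSP5 and DUSP6 led in both groups, at 100.3 ± 2.53 and 66.6 ± 0.517 CPM per kilobase with siZEB1. The length of transcript in use in these cells was not measured, so the order holds for the annotated exons only.

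The transcripts of the relay on which the feedback genes act were measured beside them. Of 18 genes for adaptors, RAS proteins and kinases from GRB2 to ERK, 8 were lower and 2 were higher. The criterion was an adjusted p under 0.05 in edgeR's quasi-likelihood test, by which 21.2% of all genes tested were lower and 19% higher. The median log2 fold change was -0.20. SOS2 lost its call as lower without siControl replicate 1, siControl replicate 2, siZEB1 replicate 2 or siZEB1 replicate 3. GAB1 was called lower only without siZEB1 replicate 3. The largest falls were in FRS2, the docking protein of FGF receptors (-0.54), MAP2K2, which encodes MEK2 (-0.52), and the scaffold KSR1 (-0.48). NRAS rose by 0.38 on the log2 scale (adjusted p = 0.000298) and PTPN11, which encodes the RAS-activating phosphatase SHP2, by 0.32 (adjusted p = 0.00276) in the same edgeR test. MAPK3, which encodes ERK1, did not pass (log2 fold change -0.10, adjusted p = 0.422 by the same edgeR test).

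Other brakes on the pathway were measured beside the 10 genes. Of 12 further inhibitors of receptors and RAS, 11 were tested, and 5 were lower and 1 was higher in edgeR's quasi-likelihood test. These counts stand beside 21.2% lower and 19% higher among all genes tested. The median log2 fold change was -0.27. DAB2IP, which encodes a RAS GTPase-activating protein, averaged 93.8 ± 1.57 CPM and then 55.7 ± 1.30 CPM (SD, n = 3 each), so that its log2 fold change was -0.75 (adjusted p = 8.37e-08 by edgeR). The EGF receptor inhibitors LRIG1 and ERRFI1 had log2 fold changes of -0.44 and -0.34. RASA2, another RAS GTPase-activating protein, rose by 0.54 on the log2 scale (adjusted p = 9.16e-05 by edgeR). IL17RD and NF1 made up the rest of the lower genes and lost their call without siControl replicate 2, siZEB1 replicate 1 or siZEB1 replicate 2, which left 3 lower, and NF1 also without siControl replicate 1. RASAL1 was below the filter on low counts.

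Of 9 other DUSP genes, 1 was lower and 1 was higher, against 21.2% lower and 19% higher among all genes tested. The median log2 fold change was 0.15. DUSP9, a close relative of DUSP6 and DUSP7, was counted 39, 25 and 18 times under siControl and 13, 8 and 6 times under siZEB1, and its log2 fold change was -1.45 (adjusted p = 0.00634 by edgeR's quasi-likelihood test). Its call rests on few reads and was lost without siControl replicate 1 (adjusted p = 0.0518). DUSP16, which acts mainly on JNK and p38, rose by 0.21 (adjusted p = 0.0266 by edgeR), a call lost without siControl replicate 1, siZEB1 replicate 1 or siZEB1 replicate 3. DUSP3, at -0.17, was called lower without replicate 3 of either group, and DUSP2, at 0.26, was called higher without replicate 3 of either group. DUSP1, an early response gene, was at 35.7 ± 0.939 and 39.5 ± 2.81 CPM (SD, n = 3 each) and did not pass (log2 fold change 0.15, adjusted p = 0.142 by edgeR).

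Other genes that ERK is known to induce went both ways. SPRY2, SPRY4, DUSP4, DUSP6 and PHLDA1 are commonly read together with ETV4, ETV5, EPHA2, EPHA4 and CCND1 as a transcript measure of MAP kinase activity. Of 10 such output genes outside the feedback genes, 5 were lower and 4 were higher in edgeR's quasi-likelihood test. Among all genes tested, 21.2% were lower and 19% were higher. The median log2 fold change of the 10 output genes was -0.084. MYC averaged 519 ± 9.29 CPM and then 332 ± 10.9 CPM (SD, n = 3 each), and its log2 fold change was -0.64 (adjusted p = 5.47e-08 by edgeR). The receptor EPHA4 and the ETS factor ETV5 had log2 fold changes of -0.59 and -0.58. CCND1, which encodes cyclin D1, averaged 1406 ± 60.4 CPM and then 961 ± 54.8 CPM (SD, n = 3 each), and its log2 fold change was -0.55 (adjusted p = 4.83e-07 by edgeR). EPHA2 rose by 0.34 (adjusted p = 4.52e-05), EGR1 by 0.26 (adjusted p = 0.00129) and ETV4 by 0.20 (adjusted p = 0.0187) on the log2 scale in the same edgeR test. ETV4 and IER3 lost their call without siControl replicate 1, siControl replicate 2, siZEB1 replicate 1 or siZEB1 replicate 2, which left 2 higher.

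**Figure D5:**
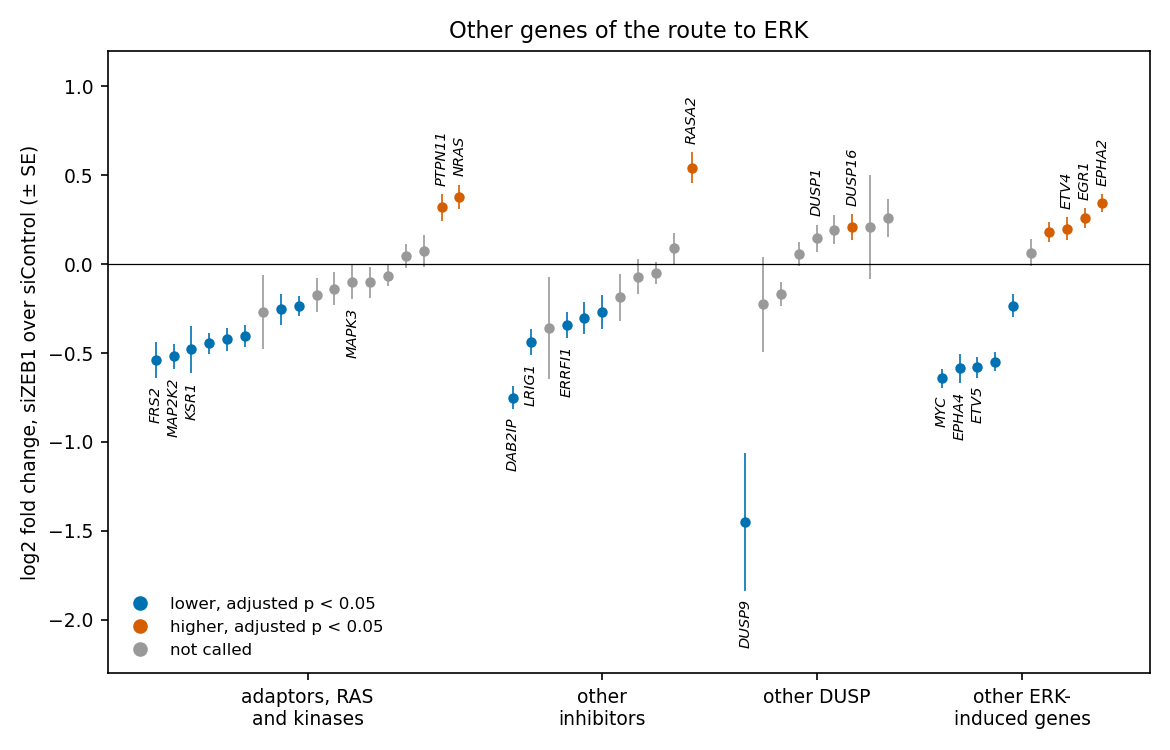
Log2 fold change of siZEB1 over siControl (points) with its standard error (bars) for the tested genes of 4 lists around the 10 feedback genes, coloured by direction where the adjusted p was under 0.05 in edgeR and grey otherwise. Falls outnumber rises among adaptors, RAS and kinases (8 and 2) and among other inhibitors (5 and 1), and the ERK-induced genes divide into 5 and 4. Over all genes tested, 21.2% were lower and 19% higher.

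The 3′UTR of SPRY4 holds a 7-mer that an earlier scan of these same data had picked out, GAACACA. In the longest annotated 3′UTR of SPRY4 (3782 bases, GENCODE 29) it stands at positions 293 and 1045 from the stop codon. The sites are shown because SPRY4 is the gene that fell the most, with the 7-mer in capitals and 10 bases on either side, from the minus strand of GRCh38 at chr5:142313900-142313926 and chr5:142313148-142313174.
SPRY4 first site: tcagaagacaGAACACAgatgtggaca
SPRY4 second site: caacctcaagGAACACAatttccctcc
None of the other 9 genes holds the 7-mer in its 3′UTR, SPRED1 with 5585 bases and PHLDA1 with 4672 bases included. Of 12315 tested genes with an annotated 3′UTR, 1.63% hold it 2 or more times and 12.6% at least once. The median log2 fold change was 0.0082 in the 10766 genes without it, -0.20 in the 1348 genes with 1 site and -0.25 in the 201 genes with 2 or more, and 21.1%, 42.8% and 49.8% of these genes were lower in edgeR's test. Among genes with 3′UTRs of 2000 to 6000 bases, which takes in SPRY4, the medians were 0.0154 without a site and -0.26 with 2 or more. Since the 7-mer was chosen from these data, these values are a description. The log2 fold change of SPRY4 lay well below the median of the genes with 2 or more sites, and the part of the 7-mer in its fall was not tested. SPRY1, SPRY2, DUSP7, DUSP4, DUSP5, DUSP6 and SPRED2 were lower and held no exact copy in their longest annotated 3′UTR. The rest of their transcripts was not searched, and the causes of their falls were not tested.

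Promoter windows from 250 bases before to 50 bases after the start were found in the RefSeq table (GRCh38.p14) for 8 of the 10 genes, 12 windows in all, with none for DUSP4 and DUSP5. The E-box CAGGTG, a motif known to be bound by ZEB1, was searched on both strands. It was in none of the 12 windows and in 20.6% of all 35116 windows of that length. Other sequences that ZEB1 may bind were not searched. For SPRY4, SPRED1, DUSP6 and PHLDA1 the window lies downstream of the outermost annotated start of the gene. The sequence around that start was not searched. TGANTCA, a loose form of the AP-1 motif with any base at N, reads alike on both strands. It was in 1 of the 12, the window of an inner start of SPRED2, and in 7.71% of all windows. The 2 matches of SPRED2 are shown from the minus strand, at chr2:65366767-65366795 and chr2:65366729-65366755, with the motif in capitals.
SPRED2 first match: taaccctcggaTGACTCAtccggtacaat
SPRED2 second match: gtcaaggagacTGAATCAtatatgggg
These matches are descriptions of the letters in the windows, and binding was not measured in these cultures.

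The tested genes whose log2 CPM followed that of SPRY4 most closely over the 6 cultures were ICAM1 (Pearson's r = 0.9997, log2 fold change -1.12), GLYR1 (r = 0.9997, -1.39) and DNMT3B (r = 0.9994, -0.31). For PHLDA1 they were RNF13 (r = 0.9990, log2 fold change 0.28), ACOT2 (r = 0.9988, 0.77) and NHLH1 (r = 0.9983, 2.55). With 2 groups of 3 cultures these coefficients mostly follow the gap between the groups, and 255 genes for SPRY4 and 38 for PHLDA1 had r above 0.99.

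SPRY4-AS1, an antisense gene beside SPRY4 that shares no exonic base with it, was counted 81, 53 and 44 times under siControl and 38, 26 and 44 times under siZEB1, and did not pass (log2 fold change -0.58, adjusted p = 0.0762 by edgeR's quasi-likelihood test). The pseudogene DUSP5P1 had 7 reads in all 6 cultures, far fewer than DUSP5 in any of them.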

How the data were processed

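RNA-seq of 3 siControl and 3 siZEB1 cultures was used, grouped by the sample titles. The authors deposited whole-number counts of reads per gene for each culture, without normalization. The submitters' processing notes name Trimmomatic, HISAT2, SAMtools, featureCounts and hg38, and the annotation and the use of the strand in counting are not given in the sources used here, so reads of overlapping antisense genes may be mixed. From the counts, genes were kept by edgeR's filterByExpr, scaled by TMM and tested by edgeR's quasi-likelihood test (R 4.3.3, edgeR 4.0.16), two-sided and without covariates, with Benjamini-Hochberg adjustment over 14996 genes and calls at adjusted p under 0.05. The biological coefficient of variation was 6.58%. Levels are CPM after TMM. The script was tested on simulated counts of 14996 genes, with 100 genes changed 1.5-fold and 100 changed 2-fold. It recovered 54% and 83% of these at an adjusted p under 0.05 in edgeR's quasi-likelihood test. Of all its calls there, 9.87% were on genes left unchanged. Within a group, chi-square over degrees of freedom between cultures was 2.178 to 8.578, so none was a copy of another. The study's methods call the samples biological replicates, and the labels do not say how the cultures were separated, so p-values measure only the spread between these cultures.

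The 10 genes, the lists and the 7-mer were chosen with earlier results of these data known. Genes named were the 10 members, ZEB1, MAPK3, DUSP1, up to 3 called genes per direction with the largest change in each list, and the 3 genes most correlated with the largest fall and the largest rise (log2 CPM, prior count 2). SPRY3, IL17RD, NF1, SOS2, GAB1, DUSP2, DUSP3, IER3, CCND1, RASAL1, PDGFRB, PHLDA2, PHLDA3, the antisense genes and DUSP5P1 were named after their values were seen. A few genes that meet the rule are not reported here. Coordinates, exonic lengths and 3′UTRs are from GENCODE 29 on GRCh38. Alternatives were DESeq2 1.42.0, median-of-ratios factors, total library size, no filter, a minimum of 10 counts per culture, a block on the replicate number, leaving out each culture, and a fold above 1.5 with p under 0.001.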

Additional observations from a re-analysis of the deposited data

How the results depend on the processing

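Each of the 9 called feedback genes kept its direction and its call in edgeR and DESeq2, under both other scalings, under both other filters, with the block and in all 6 fits without 1 culture. These scalings moved the median log2 fold change of all genes to between -0.014 and 0.0022. SPRED1 alone changed its call, and genes higher among the 10 numbered 1 to 2 with 1 culture left out. A fold above 1.5 with p under 0.001 left 1004 genes lower and 678 higher in all, 4 feedback genes lower, 2 ERK-induced genes lower and 0 higher, 1 other inhibitor lower and 0 higher, 0 other DUSP genes lower and 0 higher, and 0 adaptors, RAS and kinases lower and 0 higher. With total library size alone, 2 other DUSP genes were lower, and with at least 10 counts in every culture 0 were, since DUSP9 was removed. With 1 culture left out, 2 to 4 ERK-induced genes were higher, 3 to 5 other inhibitors lower, and 0 to 2 other DUSP genes lower and 0 to 2 higher. DESeq2 called 2850 genes lower and 2666 higher.

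The replicate numbers showed no sign of pairing: the deviations of same-numbered cultures correlated at -0.052, -0.088 and -0.20. Those of differently numbered cultures correlated at -0.071 to 0.14. Deviations from the mean of 3 cultures depend on each other, so this check cannot settle whether the cultures were paired. With the replicate number as a block, 2679 genes were lower and 2289 higher, 2 ERK-induced genes and 0 other DUSP genes were higher, and the calls of the 10 feedback genes did not change. The precision is limited by 3 cultures per group, and for SPRY1 and DUSP9 by their reads. The causes of these changes were not tested, apart from the removal of DUSP9 by the filter.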
